A study of Mus musculus with 2 samples.

Results

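Well-expressed genes of chromosome 8 were compared between 1 array of mouse embryonic stem (ES) cells labelled as a Dnmt1 knockout (KO) and 1 array of ES cells labelled as their control. The members were the genes that the gene annotation places on chromosome 8 and whose brightest probe set had a control signal of 800 or more. Ribosomal protein, respiratory chain and Zfp-named genes and a set of single genes were left out by symbol. Of 932 chromosome 8 genes on the array, 150 reached that signal, 12 of these were left out, and 138 were members. The array measured 18193 genes in all. The labels give the KO group as Dnmt1 KO and the control group as the control of Dnmt1 KO. Only the sample title marks the KO array, because both source names describe the control. The sources used here do not give the strain, the sex, the deleted allele, the clone, the culture conditions or the karyotype. With 1 array a group there is no replicate spread and no test, and the values describe these 2 arrays.

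Chromosome 8 of the mouse carries housekeeping genes of many kinds, with no function common to the whole chromosome. A gain of this chromosome is among the recurrent karyotype changes of cultured mouse ES cells, and a chromosome present in another copy number usually shifts the RNA of most of its genes together. Dnmt1 is the methyltransferase that copies cytosine methylation in CpG dinucleotides onto newly made DNA. Chromosome number was not measured here, and its part in the values below was not tested.

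Signals are MAS5 intensities, the linear summary that Affymetrix software gives for each probe set. The median gene above background was 1.34-fold brighter on the KO array, a shift of 0.43 on the log2 scale. Log2 ratios below are KO over control with that shift subtracted; a ratio given as deposited is not centred. Background means the median signal of an array, called the floor (60.9 for the control and 74.2 for the KO). The control signal that chose the members is also the denominator of their ratio, so the ratios are given as a description. They are set beside the 1665 genes of the other chromosomes chosen by the same signal and the same left-out symbols. The trimmed mean signal was 184 for the control and 247 for the KO. Dnmt1 itself went from 1949.1 to 262.1 on its brightest probe set, a log2 ratio of -3.32. All 10 listed ES cell markers were above the floor on both arrays, with summed signals of 29816 and 38310. Singly they did not move alike. Nanog went from 592.5 to 1965.5 (1.30) and Esrrb from 361.8 to 1098.1 (1.18). Utf1 had -0.62 and Fgf4 -0.51, and the others lay between -0.22 (Dppa5a) and 0.21 (Zfp42). Of 10 fibroblast (feeder cell) markers, 4 were above the floor on each array, and the list summed to 3114 and 3712. The matrix protein gene Fn1 held most of that sum (2361.2 and 2697.9). Also above the floor on both arrays were Thy1 (340.0 and 549.8) and the collagen genes Col1a1 (94.3 and 80.2) and Col1a2 (172.9 and 190.9). A further collagen gene, Col3a1, was below the floor on both arrays (34.9 and 31.5). The endoderm list summed to 468.3 for the control and 662.0 for the KO, and the trophoblast list to 497.2 and 740.9. The list for early neural or mesodermal cells summed to 743.4 and 711.6. The part of such cells in the ratios below was not tested. In RNA from a whole culture, fewer cells of a type and less RNA per cell cannot be told apart.

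The upstream sequences of 3 members are shown because these genes mark the ends of the range described below: Sin3b and Gabarapl2 lay above the shift, and Apela had the lowest ratio. Each run is the 250 bases before the gene start in RefSeq, build GRCm38.p6, read 5′ to 3′ on the gene's strand, with every CpG, the dinucleotide that Dnmt1 methylates, in capitals. They lie at chr8:72723020-72723269 (plus strand), chr8:111940453-111940702 (plus strand) and chr8:65037337-65037586 (minus strand). A matching entry was found for 102 of the 138 members (73.9%), which is too few for a check of CpG content over the members, so none was made. Hmox1 had no entry.
Sin3b: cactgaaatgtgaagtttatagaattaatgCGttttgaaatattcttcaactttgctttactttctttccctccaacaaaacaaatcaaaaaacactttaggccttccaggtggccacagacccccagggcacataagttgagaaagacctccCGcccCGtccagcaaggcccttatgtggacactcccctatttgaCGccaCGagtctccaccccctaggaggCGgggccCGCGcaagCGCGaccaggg
Gabarapl2: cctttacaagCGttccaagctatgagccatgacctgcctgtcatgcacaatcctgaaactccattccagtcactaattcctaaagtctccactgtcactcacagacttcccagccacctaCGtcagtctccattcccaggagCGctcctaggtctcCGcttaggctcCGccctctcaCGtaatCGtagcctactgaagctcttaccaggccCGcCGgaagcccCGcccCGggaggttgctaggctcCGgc
Apela: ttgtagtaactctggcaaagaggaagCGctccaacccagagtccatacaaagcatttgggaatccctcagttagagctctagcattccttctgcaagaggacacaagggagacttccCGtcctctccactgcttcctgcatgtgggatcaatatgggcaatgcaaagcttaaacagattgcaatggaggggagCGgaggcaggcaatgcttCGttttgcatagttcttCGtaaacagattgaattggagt
Counting the letters CG, which read the same on both strands, Sin3b has 10, Gabarapl2 12 and Apela 5 in this window. Of the 27025 genes in the RefSeq table, 91.7% hold at least 1 CG in the same window. Fewer CpGs than in Sin3b were found in 61.8% of them, fewer than in Gabarapl2 in 66.2% and fewer than in Apela in 44.5%. These counts describe the windows and say nothing of methylation in the cells, which was not measured.

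Nearly all members lay on one side of the shift. The median member had a log2 ratio of -0.45, or 1.36-fold lower on the KO array once centred, and 135 of the 138 were under the shift. Over all 10995 genes above the floor on both arrays, 50% lay below the shift by its construction, and over the same-signal genes elsewhere 52% did. The quartiles of the members were 1.25-fold and 1.47-fold lower. As deposited, the median member was almost level between the arrays at -0.023, with 77 members dimmer and 61 brighter on the KO array. Of the 1665 same-signal genes elsewhere, 1619 were brighter on the KO array as deposited. The members thus kept about the control signal on an array where other genes were brighter. The median control signal was 1373 and the median KO signal 1388 for the members, against 1318 and 1810 for the genes elsewhere.

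Each other chromosome was described by the same rule. Medians on the 18 other autosomes ran from -0.08 on chromosome 14 to 0.04 on chromosome 11, and the X chromosome, the next lowest after chromosome 8, had -0.13. The share of genes below the shift was between 41.9% on chromosome 9 and 65.6% on the X chromosome, against 97.8% of the members. The difference between the median member and the median same-signal gene elsewhere was -0.44. Only 39 of the 1665 genes elsewhere (2.34%) lay at or below the ratio of the median member.

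**Figure D1:**
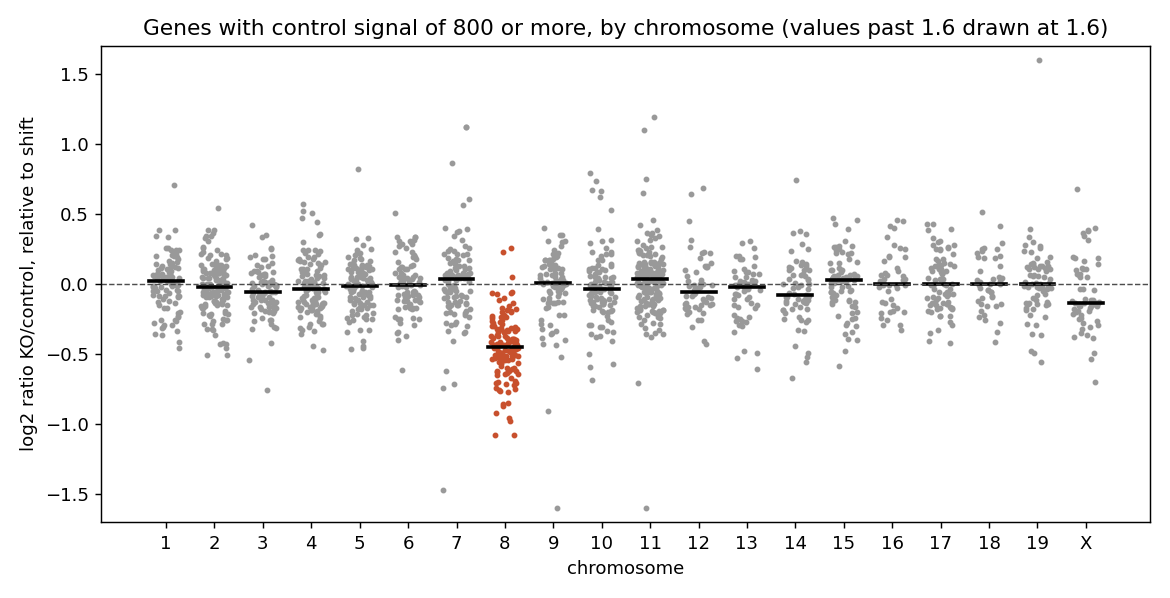
Log2 ratio of KO over control relative to the shift, for each gene with a control signal of 800 or more and no left-out symbol, by chromosome; points are genes, black bars are medians, and 3 values past 1.6 are drawn at 1.6. The 138 chromosome 8 genes centre on -0.45, while the medians of the other autosomes lie between -0.08 and 0.04.

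The members were displaced as a block and their spread was like that of other chromosomes. Their SD across genes was 0.22 and their interquartile range 0.24. Elsewhere the SD of a chromosome's genes ran from 0.18 on chromosome 3 to 0.40 on chromosome 9, which carries Dnmt1 itself. The interquartile range ran from 0.19 on chromosome 3 to 0.31 on chromosome 18. Probe sets for one gene differed by an SD of 0.24, pooled over 4704 genes, a technical scale that covers neither culture nor array differences. Within 1 such SD of the median member lay 102 members (73.9%), compared with 77.8% of the genes elsewhere around their own median. Most members thus lay no farther from their median than this technical scale.

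Measured from the shift rather than from the median member, departures of 1.5-fold or more fell on the lower side only. The median member was itself 1.36-fold lower, so many of those past 1.5-fold lay close to it. At least 1.5-fold lower were 31 members (22.5%), where 3.77% of all genes above the floor on both arrays and 0.901% of the same-signal genes elsewhere were. None was at least 1.5-fold higher, where 4.42% of all genes and 1.2% of the genes elsewhere were. At least 2-fold lower were 2 members, beside 0.482% of all genes and 0.18% of those elsewhere. None was at least 2-fold higher, beside 0.946% and 0.3%.

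Just 3 members escaped to the upper side of the shift. Sin3b encodes a scaffold of a histone deacetylase corepressor complex. Its signal went from 1316.8 to 2109.8, which is 0.25 above the shift on the log2 scale. It lay 2.90 probe-set SDs above the median member. Its 5 probe sets did not all do this. The 3 brightest gave 0.25, 0.28 and 0.24. The dimmer ones, at control signals of 281.4 and 130.1, gave -0.13 and -0.53. Averaged over its probe sets, Sin3b was at 0.02 ± 0.35 (SD over 5 probe sets), so its place above the shift rests on the bright probe sets.

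Hmox1, the inducible heme oxygenase that breaks down heme, went from 809.9 to 1272.9. That is 1.57-fold higher as deposited and 0.23 above the shift, 2.78 probe-set SDs above the median member. It has 1 probe set on the array, so no second reading of the gene was available. Gabarapl2, an autophagy protein of the Atg8 family, went from 957.6 to 1334.3. Its log2 ratio of 0.05 lay within 1 probe-set SD of the shift, and its other probe set was below the floor on both arrays. Averaging all probe sets of a gene, that one held at the floor included, put Gabarapl2 at -0.0036, just below the shift. Only Sin3b and Hmox1 then remained above it. A probe set held at the floor adds a fixed value, so this average is no second reading of Gabarapl2. All 3 genes that escaped had control signals of 1316.8 or less. With the main centring, every one of the 59 members with a control signal of 1600 or more lay below the shift. The control signal is also the denominator of the ratio. Among genes elsewhere, too, the share at or above the shift fell with it: 53.7% from 800 to 1600, 45.4% from 1600 to 3200 and 20.8% from 3200.

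Close beneath the shift came the metallothioneins, small metal-binding proteins that are among the brightest members. Mt2 went from 6513.8 to 8422.8 (-0.05) and Mt1 from 5217.2 to 6659.6 (-0.07). They are neighbours on the chromosome. The third metallothionein nearby, Mt3, which is no member, had 392.9 and 379.4 (-0.48), and Nup93 on the far side, a nuclear pore protein, had 2114.3 and 2053.8 (-0.47). Next came Herpud1, left out by symbol and dim, with 174.9 and 223.9 (-0.07). The ratio near the shift was therefore not shared by the genes directly on either side. The probe set for Mt1 carries the suffix _s_at, by which Affymetrix marks probe sets that can match several transcripts. With quantile normalization or lowess, both metallothioneins moved above the shift (Mt2 0.08 in both settings, Mt1 0.01 and 0.04).

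Also among the 10 highest were Ankrd11 and Gsr, which ranked between Mt2 and Mt1, and Slc7a5 after them. Ankrd11, a chromatin regulator, went from 1085.6 to 1397.4 (-0.06), but its 7 probe sets ranged down to -0.77, and the second brightest, with 747.9 and 635.8, gave -0.66. Gsr, the glutathione reductase that keeps glutathione in its reduced form, went from 983.5 to 1263.8 (-0.06), and its second probe set gave -0.09. Slc7a5, the transporter subunit for large neutral amino acids, went from 1707.7 to 2141.3 (-0.10). For Gsr, then, separate probe sets agree that the gene stood near the shift, whereas for Ankrd11 they do not. D8Ertd738e (826.1 to 1027.5, -0.11) was also read by an _s_at probe set, and its other probe set gave -0.81. Atp6v0d1, a subunit of the proton pump of lysosomes, closed the 10 highest at 1215.0 and 1487.2 (-0.13).

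At the low end were genes that differed from the median member by about as much as the highest ones did. Apela, the secreted peptide ligand of the apelin receptor, went from 1371.7 to 872.0, or -1.08, 2.11-fold lower once centred. Without centring it was still 1.57-fold lower. The potassium channel gene Kcnk1 went from 821.0 to 522.2 (-1.08), and its second probe set gave -0.85. Trir, named for its interaction with telomerase RNA, went from 1539.4 to 1048.0 (-0.98). Itgb1 encodes the integrin beta-1 chain, through which cells attach to matrix. Its brightest probe set went from 1728.2 to 1193.7 (-0.96), and its 3 probe sets above the floor averaged -0.79 ± 0.16 (SD).

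Among transcription regulators, Sall1, a zinc finger factor expressed in ES cells, went from 1195.1 to 846.7 (-0.92), and its second probe set gave -0.95. The chromatin remodelling helicase gene Chd9 went from 1033.1 to 769.6 (-0.85) and Tfdp1, the dimerisation partner of E2F factors, from 2099.9 to 1559.5 (-0.85). Ier2, an immediate early gene, went from 2768.7 to 2031.3 (-0.87). Cdc16, a subunit of the anaphase-promoting complex that targets mitotic proteins for destruction, went from 906.8 to 713.7 (-0.77). Ankrd10 had 1102.9 and 871.8 (-0.76). Averaged over all their probe sets, those below the floor held at it, Itgb1 came to -0.42, Cdc16 to -0.42 and Ankrd10 to -0.29. A probe set held at the floor on both arrays adds a fixed value, so this average is no second reading of the gene. Over probe sets above the floor alone, the means were -0.79 for Itgb1, -0.77 for Cdc16 (1 probe set) and -0.51 for Ankrd10. On the brightest probe set, all 10 lowest members were dimmer on the KO array as deposited too, unlike the typical member, which was level.

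**Figure D2:**
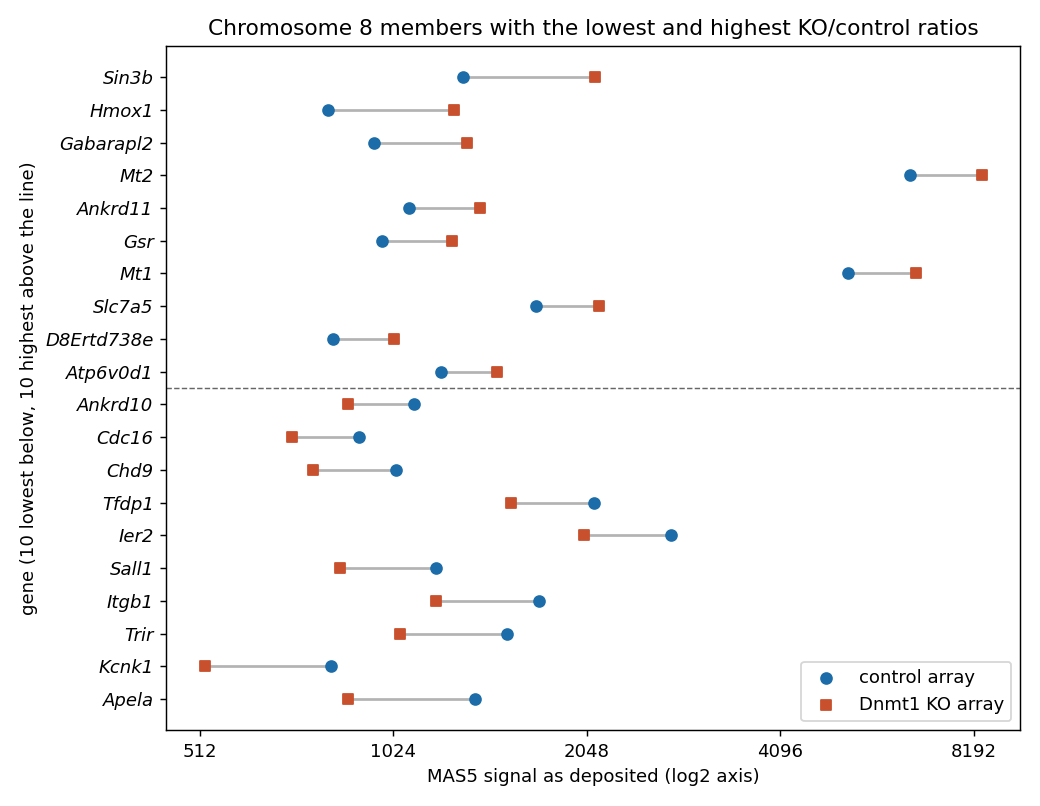
Deposited MAS5 signal on the control array (circles) and the Dnmt1 KO array (squares), on a log2 axis, for the 10 members with the lowest and the 10 with the highest ratio. The 10 highest were brighter on the KO array and the 10 lowest dimmer on it, with Mt1 and Mt2 well to the right of the others.

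Gene order along the chromosome gave no stretch that escaped. Divided into 6 consecutive groups of 23 members, the medians ran from -0.54 to -0.41, and no group had more than 2 members above the shift. The lowest group ran from Gtf2e2 to Mrpl34 and the highest from Dda1 to Ier2. Over all 601 chromosome 8 genes above the floor on both arrays, 12 consecutive groups had medians between -0.48 and -0.30, from the first measured gene to the last. The longest run at or above the shift was 1 member, or 2 genes among the 601. Neighbouring members differed by a median of 0.18 on the log2 scale.

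Local differences within this level were small sets of genes. Near the start of the order, Shcbp1 (-0.71), Arglu1 (-0.74), Ankrd10, Tfdp1 and Cdc16 were all among the low members. Lamp1, a lysosomal membrane protein that stands between Ankrd10 and Tfdp1 in this order, went from 3209.1 to 3817.2 (-0.17). Sin3b and Hmox1 are separated among the measured genes only by Hmgxb4 (-0.34) and Tom1 (-0.38). On the other side of Hmox1, the replication gene Mcm5 had 4312.5 and 4331.3 (-0.42). Around Gabarapl2, all 6 nearest measured genes lay below the shift, between -0.62 and -0.20. The 6 around Kcnk1 lay between -0.51 and -0.25, all above its own ratio. Around Apela the values were scattered, from -0.75 for Tma16 and for Naf1 on one side to 0.45 for the dim Trim60 (62.8 to 115.3) on the other, with a median of -0.15 over 6 genes.

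**Figure D3:**
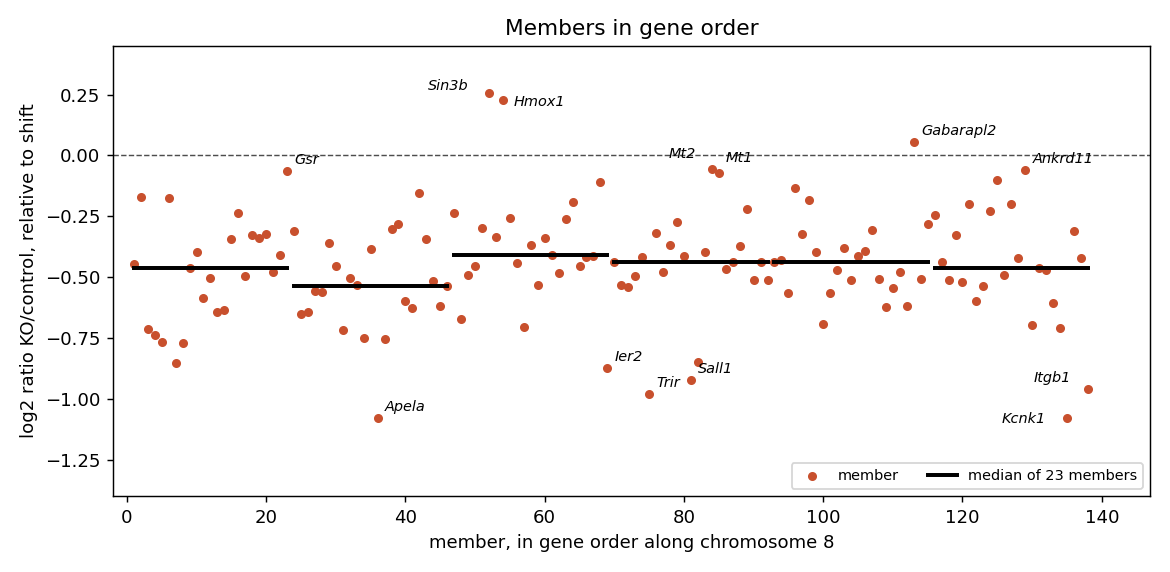
Log2 ratio of each of the 138 members relative to the shift, in gene order along chromosome 8 (rank, not distance); black bars are medians of 23 consecutive members. The 6 medians lie between -0.54 and -0.41 and the 3 members above 0 stand among lower neighbours.

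The ratio depended little on how bright a member was. In 3 groups of increasing control signal (46 members each), the medians were -0.44, -0.49 and -0.45. Chromosome 8 genes below the signal threshold were also mostly below the shift. By control signal, the median was -0.38 from 400 to 800 (128 genes) and -0.34 from 200 to 400 (154 genes). From the floor to 200 it was -0.27 (145 genes). The share at or above the shift was 3.13%, 13.0% and 18.6% in the same order, and 3.80% of the 79 members from 800 to 1600. Genes elsewhere had 56.3%, 55.9%, 50.7% and 53.7% in these ranges. Genes at or above the shift were thus more frequent on chromosome 8 below a signal of 400, and not from 400 to 800. The SD across chromosome 8 genes was 0.34 from the floor to 200, 0.36 from 200 to 400, and 0.24 both from 400 to 800 and from 800 to 1600. Genes elsewhere also spread more at low signal, with SDs of 0.40, 0.33, 0.26 and 0.25 in these ranges. At the bright end the scale itself was not flat. Genes of other chromosomes with control signals of 3200 or more had a median of -0.13, and the 12 members there had -0.39.

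**Figure D4:**
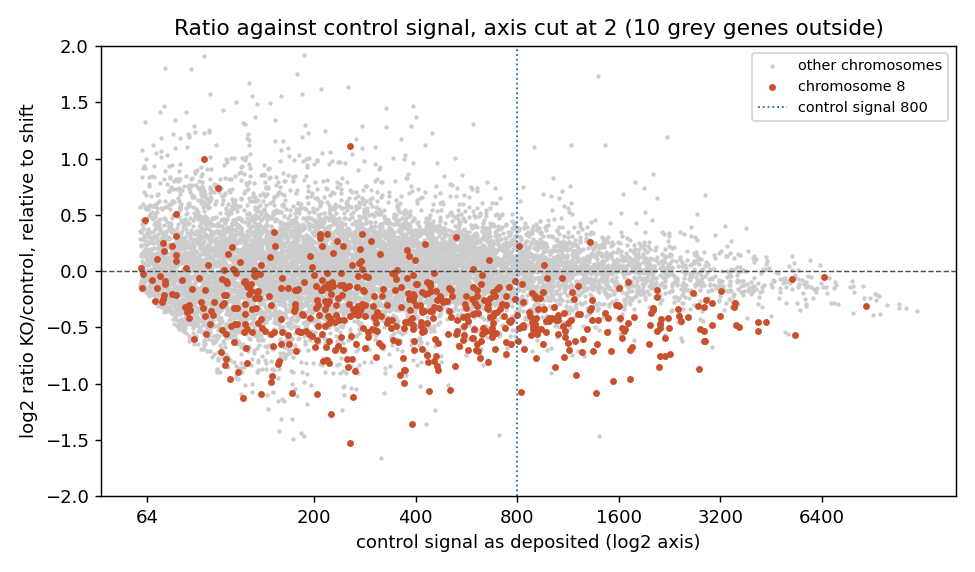
Log2 ratio relative to the shift against control signal (log2 axis) for genes above the floor on both arrays without left-out symbols; 10 genes of other chromosomes lie outside the drawn range. Most chromosome 8 genes lie below 0 over the whole range of signal, and 3 of those right of the dotted line at 800 lie above 0.

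At the threshold, the 3 members just inside it were Babam1, a subunit of a BRCA1 complex (806.1 to 704.2, -0.62), Vps36, an endosomal sorting protein (809.4 to 766.7, -0.50), and Hmox1. Just outside it were Tusc3 (796.3 to 818.1, -0.39), Ttc13 (789.9 to 894.0, -0.25) and the casein kinase subunit gene Csnk2a2 (787.7 to 993.4, -0.09). One of the 3 genes that escaped therefore owes its membership to a control signal only just above 800. The 12 chromosome 8 genes left out by symbol had a median of -0.39, with 11 under the shift. The exception was the ES cell marker Zfp42, with 2937.3 and 4555.0 (0.21).

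Further probe sets of the members gave a second reading of the same RNA. For 70 members, 2 or more probe sets exceeded the floor on each array. In 63 of these every such probe set lay below the shift, in the other 7 they differed in sign, and in none did all lie above it. Of the 136 probe sets that did not represent their gene, 128 (94.1%) were below the shift, with a median of -0.43 at a median control signal of 512. The SD between probe sets of one member was 0.25, close to that over all genes. The 19 members read by a probe set marked _s_at or _x_at had a median of -0.42 and the other 119 had -0.46. All of the 3 genes that escaped were among the 119.

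By function, most members of every group lay below the shift. General knowledge of chromosome 8 genes gave 6 lists, which took in 94 members, and 44 members were in none. The list medians ran from -0.54 to -0.30, around the -0.45 of all members. Since nearly all members lay below the shift, the lists describe what the chromosome holds and single out none of it.

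RNA processing and translation was the largest list, with 27 members, all below the shift (median -0.47, 5 at least 1.5-fold lower). Its ratios were also the most even, with an SD of 0.13. Its brightest members were Ddx39a, an RNA helicase of mRNA export (4380.9 to 4290.7, -0.46), and Eif4ebp1, which restrains cap-dependent translation (3506.4 to 3766.5, -0.32). The RNA-binding protein gene Elavl1 was the highest (2081.7 to 2481.0, -0.17), and Naf1, an assembly factor of small nucleolar ribonucleoproteins, the lowest (2197.3 to 1751.4, -0.75). All 27 ratios lay between those of Naf1 and Elavl1.

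Chromatin and transcription had 18 members, of which Sin3b alone lay above the shift (median -0.41, 4 at least 1.5-fold lower). It held both the highest and some of the lowest members, Sin3b and Sall1, and had the widest SD of the lists, 0.28. The chromatin proteins Hmgb2 and Gatad2a, the latter a subunit of the NuRD complex, were its brightest, with 4127.1 and 3829.1 (-0.53) and 3032.8 and 3352.6 (-0.28). Their probe sets differed: the dimmest of Hmgb2 gave 0.02, and those of Gatad2a ran down to -1.17. Ctcf, the insulator protein, went from 1029.4 to 1105.5 (-0.32), but a second probe set of like brightness went from 1101.7 to 881.6 (-0.75). The nucleosome remodeller Smarca5 went from 2565.2 to 2595.0 (-0.41), and its other probe sets above the floor gave -0.52 and -0.45.

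Among 19 members for trafficking, folding and turnover, 18 lay below the shift (median -0.44, 4 at least 1.5-fold lower). The import receptor gene of the outer mitochondrial membrane, Tomm20, was the brightest of all members, with 8662.0 and 9376.7 (-0.31). The chaperone gene Dnaja2 had 3571.0 and 3441.1 (-0.48). Spcs3, a subunit of the signal peptidase, was the lowest of this list (1243.6 to 1014.5, -0.72), and Gabarapl2 the highest. Map1lc3b, another autophagy protein of the Atg8 family, went from 2073.3 to 2379.5 and, unlike Gabarapl2, lay below the shift (-0.23).

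Metabolism and transport had the highest list median, -0.30 over 15 members, all below the shift and 1 at least 1.5-fold lower. Its upper end was Mt2, Gsr, Mt1, Slc7a5 and Atp6v0d1, 5 of the 10 highest members. The rest were near the median member, such as the mitochondrial aminotransferase gene Got2 (2777.1 to 2617.1, -0.51) and Aprt, which salvages adenine (2136.0 to 2139.5, -0.42). Vdac3, a channel of the outer mitochondrial membrane, was the lowest (1970.3 to 1691.9, -0.65).

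Cell cycle and DNA repair had 7 members, all below the shift, with the lowest list median, -0.54, and 3 at least 1.5-fold lower. Cdt1, which licenses replication origins, was the brightest (2659.7 to 3113.3, -0.20), and the ubiquitin ligase gene Rfwd3 came next (1478.5 to 1362.2, -0.54). The centromere protein gene Cenpt was the highest (954.8 to 1129.7, -0.18) and Cdc16 the lowest. Signalling, adhesion and cytoskeleton had 8 members, all below the shift (median -0.48, 2 at least 1.5-fold lower). E-cadherin, Cdh1, the adhesion molecule that holds ES cell colonies together, went from 5322.2 to 4829.2 (-0.57). The docking protein gene Gab1 had 3026.7 and 2910.4 (-0.48), Cotl1, an actin-binding protein, 882.1 and 1032.4 (-0.20), and Ier2 was the lowest.

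**Figure D5:**
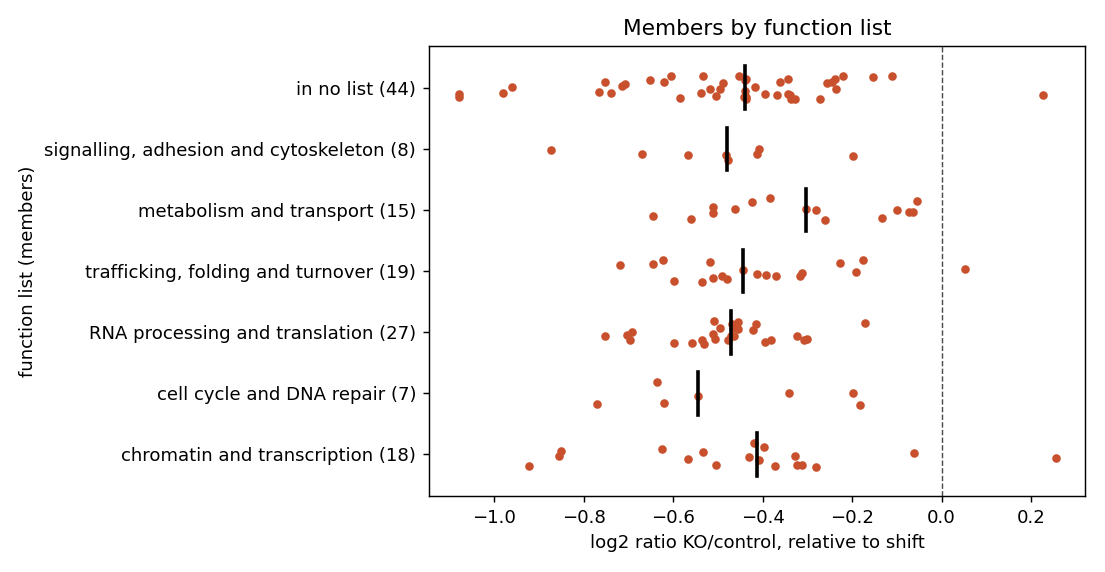
Log2 ratio of each member relative to the shift, by function list with the number of members in brackets; points are genes (spread vertically for visibility) and black bars are medians. The medians of the 6 lists run from -0.54 to -0.30, and 3 members in all lie right of 0.

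Some members work in complexes whose other subunits are encoded elsewhere, which allowed values within a complex or protein family to be set side by side. The anaphase-promoting complex has Cdc16 (-0.77) and Anapc10 (963.3 to 1022.0, -0.34) on chromosome 8. Its 11 subunits from other chromosomes had a median of 0.02 and ran from -0.49 (Cdc26) to 0.49 (Anapc16), with 5 below the shift. Cdc16 lay below all of them, and Anapc10 below all but Cdc26. The LSm family forms more than 1 ring that binds RNA, in decay or in splicing. It has Lsm1 (831.5 to 792.2, -0.50), Lsm4 (2198.2 to 1950.6, -0.60) and Lsm6 (1137.1 to 938.1, -0.70) on chromosome 8. The 4 measured LSm genes from other chromosomes were also below the shift, at -0.12 (Lsm3), -0.23 (Lsm2), -0.25 (Lsm8) and -1.02 (Lsm7). Lsm2, Lsm3 and Lsm8 lay above all of the chromosome 8 LSm genes. Lsm7, on chromosome 10, had the lowest ratio and was the dimmest of these LSm genes (410.9 to 272.7). An order by chromosome thus did not hold for Lsm7, nor for Cdc26 beside Anapc10. Genes from other chromosomes were not chosen by control signal here. Lsm7, Cdc26 (594.1 to 566.1) and Anapc16 (382.4 to 721.8) were among those below the signal required of members.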

How the data were processed

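One Affymetrix mouse expression array was hybridised per group, with total RNA and biotin labelling per the labels' protocols. The authors deposited linear MAS5 signal intensities, per the submitters' processing notes, with software version, target intensity and rescaling not given in the sources used here. Of 45101 probe sets, 64 were Affymetrix controls. Genes came from probe sets with 1 symbol in the platform annotation (34958; 932 had several and 9211 none). Symbols, chromosomes and gene order came from RefSeq, assembly GRCm38.p6, which held 34741 of 34945. Signals below an array's median were raised to it, the floor. A gene was read from its brightest probe set by mean log2 signal, and ratios were centred on the median of 10995 genes above the floor on both arrays. Without replicates no test was made; arrays, being 1 per group, limit the precision. Named were the 10 highest and 10 lowest members, the 3 on each side of the threshold, the 2 brightest, the highest and the lowest of each list, and Dnmt1; other names, the complexes and the probe-set suffix split were chosen after the values were seen. The members and lists were chosen with earlier results of these data known. Scripts ran in Python 3.11.15 with pandas 2.3.3 and statsmodels 0.14.6, and were tested on simulated data.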

Additional observations from a re-analysis of the deposited data

How the results depend on the processing

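The main limit is the lack of replicates. No paired analysis was possible because each group had 1 array. As deposited, without centring, the median member was at -0.023, 77 members lay below 0 and 61 above, 2 were at least 1.5-fold lower and 0 at least 2-fold lower, and Dnmt1 had -2.89. The median difference from same-signal genes elsewhere stayed between -0.46 and -0.40 in all 14 alternatives. Leaving out the centring, or centring without chromosome 8, cannot change this difference, so those settings are no check of it. Dropping the floor left the difference at -0.44 too, because genes this bright lie above the floor. With quantile normalization or lowess, 5 members lay at or above the shift. Averaging probe sets, with those under the floor held at it, left 0 members 2-fold lower and 2 above the shift, without Gabarapl2. The second brightest probe set gave 68 of 70 members below the shift and 1 that was 2-fold lower. A control signal of 400 gave 259 members below, 7 at or above, 59 lower by 1.5-fold or more and 4 by 2-fold or more, and one of 1600 gave 59, 0, 13 and 0, mainly because the number of members changed to 266 and 59. Choosing by a KO signal of 800 gave 6 at or above and 1 that was 2-fold lower, and by the geometric mean 1. The setting without _s_at and _x_at probe sets was chosen after seeing the data. None of the 14 named members at least 1.5-fold lower changed sign in any alternative that gave a value for it. As deposited, 12 were no longer 1.5-fold lower, and 4 (Ankrd10, Babam1, Cdc16 and Itgb1) when probe sets were averaged. Babam1 has 1 probe set, so its move from -0.62 to -0.58 came from the centring, which was redone for the averages. For Ankrd10, Cdc16 and Itgb1, probe sets held at the floor entered the average.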

Other observations

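Chromosome 8 genes outside the members, named here after their values were seen, held wider departures. Of 463 such genes above the floor on both arrays, 408 (88.1%) lay below the shift, 11 (2.38%) were at least 2-fold lower and 1 (0.216%) was at least 2-fold higher. Over all genes above the floor these shares were 50%, 0.482% and 0.946%, without matching for signal. Non-members below the threshold and not left out were dim, with a median control signal of 263.3. Genes elsewhere also spread more at low signal, with an SD of 0.40 from the floor to 200 and 0.25 from 800 to 1600. The non-member at least 2-fold higher was Cklf, a chemokine-like factor, which went from 255.7 to 740.1 (1.11). Acta1, skeletal muscle actin, went from 94.3 to 252.9 (1.00, just short of 2-fold) and Neto2, an accessory protein of kainate receptors, from 103.9 to 232.9 (0.74). No other non-member was at least 1.5-fold higher. The lowest was Misp3 (254.7 to 118.7, -1.53). Others at least 2-fold lower were Myo9b, an unconventional myosin (389.9 to 204.7, -1.35), Clgn, a chaperone of the testis (224.1 to 125.0, -1.27), and Vac14, a scaffold of phosphoinositide synthesis (259.8 to 161.0, -1.12). The remaining 7 ran from -1.13 to -1.06, and the brightest of the 11 on the control array was Mtmr7 (505.0 to 325.2, -1.06).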
